A study of Callithrix jacchus with 20 samples.

Results

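Gene expression was compared between 4 embryonic stem cell lines of the common marmoset (Callithrix jacchus) that were derived by nuclear transfer from cells carrying a green fluorescent protein transgene (ntESC GFP, lines #24, #50, #54 and #55) and 4 lines derived from fertilized embryos (control ESC, lines #13, #15, #17 and #37). The lines were taken by their labels, which makes 8 of the 20 samples of the series, and each line gave 1 library. Levels are given as TPM, a measure of transcript abundance corrected for gene length and scaled to sum to 1000000 in each library. Of the 22330 genes in the table of stem cells, 16094 had a mean of at least 0.5 TPM over these 8 libraries and were tested on the log2(TPM + 0.1) scale with limma, a linear model that pools information on the spread over genes.

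The series asks whether marmoset cells reprogrammed by somatic cell nuclear transfer (SCNT), in which a fibroblast nucleus is placed in an enucleated oocyte, match cells from fertilized embryos. The ntESC GFP lines have the genotype CAG-EGFP Tg, a transgene in which the broadly active CAG promoter drives enhanced GFP, and came from cultured fibroblasts. Their SCNT embryos received mouse Kdm4d mRNA, which encodes an H3K9 demethylase, the G9a inhibitor RK-701 and the deacetylase inhibitor trichostatin A. The control ESC lines have the Wildtype genotype and came from in vitro fertilized embryos (IVF, #15 and #17) or naturally fertilized embryos (NAT, #13 and #37), with no SCNT step. Both kinds were pooled as controls. All 8 lines were grown without feeder cells on a laminin fragment, in medium conditioned by mouse embryonic fibroblasts with basic FGF. A line is the outgrowth of 1 blastocyst, and whether the 4 ntESC GFP lines share a donor animal is not given in the sources used here. In karyotyping at a later passage, line #54 carried a translocation between chromosomes 7 and 15. Nuclear transfer, the transgene, donor animals, passage number and sequencer model cannot be told apart in this comparison. Sex may differ between the groups as well. The authors report unequal shares of male and female cells across conditions, and sex was not in the fit. Its p-values rest on how far the lines of a group differ from each other. The transgene itself was not analysed here. The table also holds 3 nuclear transfer lines from Wildtype donors (ntESC WT, #30, #53 and #61), which were compared with the same control lines, so their values are given side by side only.

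Primate embryonic stem cells grown under these conditions are in a primed state that resembles the epiblast around implantation, and they are held there by POU5F1, SOX2 and NANOG together with FGF and NODAL/activin signals. A somatic nucleus placed in an oocyte has to silence the program of its cell of origin and switch these genes on, and marks such as H3K9 methylation are known as barriers to this step. Pluripotent cells rely strongly on glycolysis while their mitochondria are immature, and they devote much of their transcriptome to ribosomes and growth.

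The 8 libraries were alike in their general properties, with line #54 farthest from the others. Between 20663 and 21201 genes were above 0 in each. TPM keeps no depth, but the commonest ratio between low values gave line #54 a depth of 0.742 relative to control #13, line #55 0.871 and the other 6 lines 0.959 to 1.01. Over all genes tested, the mean Euclidean distance to the control lines on the log2 scale was 129.7 for line #54, 100.3 for #24, 101.2 for #50 and 109.2 for #55, against 92.99 to 99.84 from a control line to the other control lines. The median SD between lines was 0.26 in ntESC GFP and 0.23 in control ESC. Median differences from the control mean by chromosome ran from −0.14 to 0.11 in single ntESC GFP lines and from −0.05 to 0.04 in control lines.

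The lines carried the transcripts of pluripotent cells and little of those of fibroblasts. The summed level of 9 pluripotency markers was 6563 to 9162 TPM in ntESC GFP, 7572 to 9209 TPM in control ESC and 1.53 TPM in the 1 fibroblast library, which came from a Wildtype donor and not from the transgenic donor cells of the ntESC GFP lines. The summed level of 12 fibroblast markers was 300.3 to 424 TPM in ntESC GFP, 289 to 497.5 TPM in control ESC and 45060 TPM in fibroblasts. Of 24 genes listed for core pluripotency, 0 passed the limma test in either direction, and the median log2 fold change was 0.04. An unadjusted p under 0.05 was found for 2 of the 24, against 3021 of all 16094 genes. POU5F1, the central pluripotency factor, stood at 3358 TPM in #13, 3691 in #15, 3506 in #17 and 3233 in #37 of the control lines and at 3364 TPM in #24, 2131 in #50, 2539 in #54 and 2460 in #55 of the ntESC GFP lines. Line #24 lay inside the control range and the other 3 lay below it (log2 fold change −0.41 with a standard error of 0.13, adjusted p = 0.143 from limma). Without #24, POU5F1 passed as lower (adjusted p = 0.0281, limma) and was the 1 gene of the list to do so in any of the 8 fits without 1 line. NANOG, its partner, stood at 571 to 791 TPM in control ESC and at 738 TPM in #24, 673 in #50, 1424 in #54 and 939 in #55 in ntESC GFP, groups that overlapped (log2 fold change 0.47 with a standard error of 0.22, adjusted p = 0.289 from limma). SOX2 differed by 0.53 on the log2 scale, with an adjusted p of 0.222 from limma. In such bulk samples, fewer cells of a type and less RNA per cell cannot be told apart.

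Across all genes, 137 of 16094 passed the limma test at an adjusted p under 0.05 (0.851%), 69 of them higher (0.429%) and 68 lower (0.423%) in ntESC GFP. A further view counts genes for which the 4 lines of one group all lay above the 4 of the other. This held for 916 genes (5.69%) higher and 962 genes (5.98%) lower in ntESC GFP, and 3021 of the 16094 genes had an unadjusted p under 0.05. Counts of calls, non-overlap and unadjusted p in gene lists are to be read beside these shares of all genes. The median log2 fold change over all genes was 0.00 (−0.0011), with 8023 genes above 0. Of the 137 genes, 34 passed in each of the 8 fits that left out 1 line, 21 higher and 13 lower, while 103 were lost without GFP #55 and 65 without GFP #54. The number called was 66 without control #15, 87 without control #17, 354 without GFP #24, 90 without GFP #50, 86 without GFP #54 and 36 without GFP #55. None of the 137 genes changed sign in these fits.

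**Figure D1:**
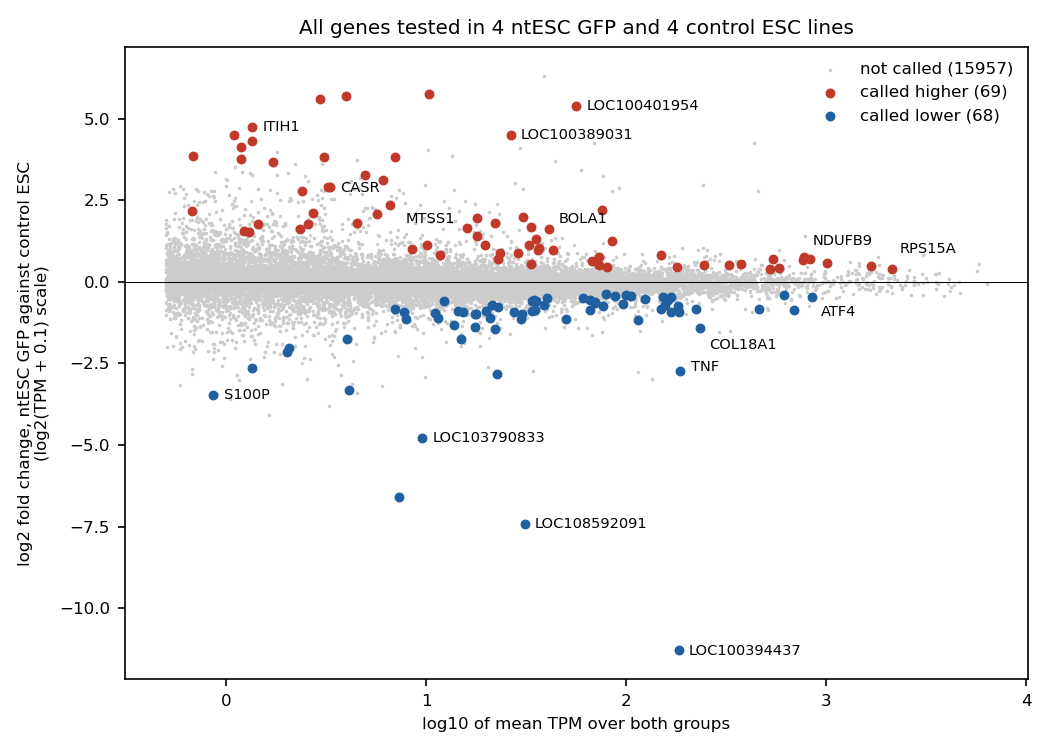
Mean TPM of each gene tested (log10) against its log2 fold change between the 4 ntESC GFP and the 4 control ESC lines, with 69 genes called higher in red, 68 called lower in blue and the others in grey. Changes of small size such as RPS15A were called among abundant transcripts, while the largest ones belonged to LOC genes of low level in 1 of the groups.

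Genes with a LOC identifier, which are predicted genes without an assigned symbol, made up 21.6% of the genes tested and 38.0% of the genes called. Among the genes called higher, 38 were LOC genes with a median log2 fold change of 2.10, and 31 had a symbol with a median of 0.75. Among those called lower, 14 were LOC genes with a median of −2.40, and 54 had a symbol with a median of −0.82. By annotated kind, 4.46% of the 202 pseudogenes and 3.39% of the 295 transcribed pseudogenes tested were called, against 0.73% of the 13158 protein-coding genes. Multi-mapping reads had been dropped, so the levels of genes with near-identical copies are uncertain.

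Nuclear genes for oxidative phosphorylation, which encode the respiratory chain complexes of mitochondria and ATP synthase, lay mostly above the control mean in ntESC GFP. Of 60 genes listed and tested, 8 rose and 0 fell, 54 had a log2 fold change above 0, and the median was 0.23. Of all genes, 0.429% rose and 0.423% fell. For 25 of them (41.7%) all 4 ntESC GFP lines lay above all 4 control lines, against 5.69% of all genes, and for 0 of them below. The median difference from the control mean was 0.14 in line #24, 0.28 in #50, 0.23 in #54 and 0.35 in #55, with control lines between −0.04 and 0.04. The number called depended on the lines: it was 17 without #24 and 2 without #55, and 4 or 5 without any other line, while the median stayed between 0.20 and 0.28. Split by complex, in lists drawn up after the values had been seen, 6 of 35 genes of complex I rose, with a median of 0.20, and 2 of 17 of ATP synthase, with a median of 0.29. The list held only 4 genes of complex II, 3 of complex III and 1 of complex IV, all tested, with 0 calls. Other genes of these complexes were not on it. The counts over the 60 genes therefore describe mostly complex I and ATP synthase and not the whole respiratory chain.

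NDUFB9, an accessory subunit of complex I, stood at 571 TPM in #13, 625 in #15, 571 in #17 and 547 in #37 of control ESC and at 893 TPM in #24, 963 in #50, 1068 in #54 and 971 in #55 of ntESC GFP. The groups were well separated, with a rise of 1.68-fold (log2 fold change 0.75 with a standard error of 0.08, adjusted p = 0.0022 from limma). The NDUFB9 call was kept in all 8 fits without 1 line. NDUFB10, another accessory subunit, stood at 115 TPM in #13, 97.1 in #15, 109 in #17 and 109 in #37 of control ESC and at 192 TPM in #24, 182 in #50, 183 in #54 and 214 in #55 of ntESC GFP. It rose 1.79-fold without overlap (log2 fold change 0.84 with a standard error of 0.08, adjusted p = 0.00199 from limma). The NDUFB10 call was kept in all 8 fits without 1 line. NDUFA4, long assigned to complex I and later to cytochrome c oxidase, was counted with complex I in the split above. It stood at 537 to 664 TPM in control ESC and at 872 TPM in #24, 917 in #50, 1050 in #54 and 935 in #55 in ntESC GFP. Its rise of 0.67 on the log2 scale (adjusted p = 0.0115, limma) was lost without GFP #55 (adjusted p up to 0.055).

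The other called members of complex I lost their calls in most fits that left out 1 line. NDUFA3 stood at 443 TPM in #13, 424 in #15, 364 in #17 and 408 in #37 of control ESC and at 524 TPM in #24, 644 in #50, 714 in #54 and 792 in #55 of ntESC GFP, with #24 nearest to the controls. Its log2 fold change was 0.69 (adjusted p = 0.0451, limma). The NDUFA3 call was lost when any line other than GFP #24 was left out (adjusted p up to 0.139). NDUFB4 rose from between 294 and 316 TPM to between 381 and 476 TPM (log2 fold change 0.55, adjusted p = 0.0243, limma). The NDUFB4 call was lost when any line other than control #37 and GFP #24 was left out (adjusted p up to 0.104). NDUFB3 rose from between 147 and 162 TPM to between 191 and 216 TPM (log2 fold change 0.45, adjusted p = 0.0262, limma). The NDUFB3 call was lost when any line other than control #13 and GFP #24 was left out (adjusted p up to 0.115). In each of these genes the 4 ntESC GFP lines lay above the 4 control lines. DMAC1, which takes part in assembling the membrane arm of complex I, rose from between 50.4 and 58.9 TPM to between 70.4 and 107 TPM (log2 fold change 0.75, adjusted p = 0.0348, limma). The DMAC1 call was lost when any line other than GFP #24 was left out (adjusted p up to 0.119).

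Of ATP synthase, ATP5ME, which encodes subunit e, stood at 205 TPM in #13, 188 in #15, 192 in #17 and 213 in #37 of control ESC and at 277 TPM in #24, 277 in #50, 308 in #54 and 295 in #55 of ntESC GFP. All 4 ntESC GFP lines were higher (log2 fold change 0.53, adjusted p = 0.0122, limma). The ATP5ME call was lost without GFP #55 (adjusted p up to 0.066). ATP5F1C, the gamma subunit of the rotor, rose from between 434 and 477 TPM to between 544 and 639.9 TPM (log2 fold change 0.40, adjusted p = 0.0404, limma). The ATP5F1C call was lost when any line other than GFP #24 was left out (adjusted p up to 0.144). ATP5MG, subunit g, stood at 200.4 to 214 TPM in control ESC and at 254 TPM in #24, 414 in #50, 422 in #54 and 438 in #55 in ntESC GFP. Line #24 lay far below the other 3 and still above the controls, and the gene did not pass (log2 fold change 0.86, adjusted p = 0.0504, limma). BOLA1, a mitochondrial protein tied to iron-sulfur clusters, stood at 18.4 TPM in #13, 22.4 in #15, 19.3 in #17 and 20.1 in #37 of control ESC and at 64.7 TPM in #24, 58.1 in #50, 66.9 in #54 and 57.9 in #55 of ntESC GFP. The rise of 3.07-fold left the groups far apart (log2 fold change 1.62 with a standard error of 0.10, adjusted p = 0.000103 from limma). The BOLA1 call was kept in all 8 fits without 1 line.

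Other mitochondrial gene groups gave few calls. Of 13 genes encoded by mitochondrial DNA, 0 passed the limma test, 5 had an unadjusted p under 0.05, and the median log2 fold change was −0.03. Of 74 proteins of the mitochondrial ribosome, a list drawn up after the values had been seen, 0 rose and 1 fell, with a median of 0.06. That gene, MRPS27, stood at 86.5 TPM in #13, 85.2 in #15, 92.97 in #17 and 72.8 in #37 of control ESC and at 51.4 TPM in #24, 51.4 in #50, 35.6 in #54 and 49.9 in #55 of ntESC GFP, with #54 lowest. It fell by 0.85 on the log2 scale (adjusted p = 0.0274, limma). The MRPS27 call was lost without control #15, control #17, control #13 or GFP #55 (adjusted p up to 0.0956). Of 35 proteasome genes, 0 passed and the median was −0.01.

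Genes for the canonical cytoplasmic ribosomal proteins, the structural proteins of the translation machinery, also lay mostly above the control mean, less evenly over lines. Of 74 genes tested, 4 rose, 0 fell and 57 lay above 0, with a median log2 fold change of 0.19. The share of all genes that rose was 0.429%. In 24 of them (32.4%) the ntESC GFP lines all lay above the control lines, against 5.69% of all genes, and in 2 all below, against 5.98%. The median difference from the control mean was 0.15 in #24, 0.26 in #50, 0.02 in #54 and 0.30 in #55. The count of 4 was not stable: it was 13 without #24, 2 without control #37, 1 without #54 and 0 without any of the other 5 lines, while the median ran from 0.14 to 0.26. Of 61 translation factors, 0 passed the limma test and 6 had an unadjusted p under 0.05, with a median of 0.06.

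RPS29, of the small ribosomal subunit, stood at 611 TPM in #13, 588 in #15, 661 in #17 and 631 in #37 of control ESC and at 794 TPM in #24, 1158 in #50, 977 in #54 and 1179 in #55 of ntESC GFP. Line #24 was nearest to the controls, and the rise of 0.71 on the log2 scale (adjusted p = 0.0388, limma) was lost when any line other than GFP #24 was left out (adjusted p up to 0.137). RPS21 stood at 783 TPM in #13, 776 in #15, 822 in #17 and 871 in #37 of control ESC and at 1065 TPM in #24, 1268 in #50, 1172 in #54 and 1326 in #55 of ntESC GFP. Its groups did not overlap (log2 fold change 0.57, adjusted p = 0.0205, limma). The RPS21 call was lost when any line other than control #37, GFP #24 and GFP #54 was left out (adjusted p up to 0.0806). RPL17 rose from between 1332 and 1484 TPM to between 1711 and 2142 TPM (log2 fold change 0.48, adjusted p = 0.0406, limma). The RPL17 call was lost when any line other than GFP #24 was left out (adjusted p up to 0.143). RPS15A rose from between 1785 and 1872 TPM to between 2232 and 2546 TPM (log2 fold change 0.38, adjusted p = 0.0348, limma). The RPS15A call was lost when any line other than GFP #24 was left out (adjusted p up to 0.135). RPL38 showed the same order of groups, 1264 to 1370 TPM against 1576 to 2695 TPM, and did not pass (log2 fold change 0.76, adjusted p = 0.0594, limma).

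**Figure D2:**
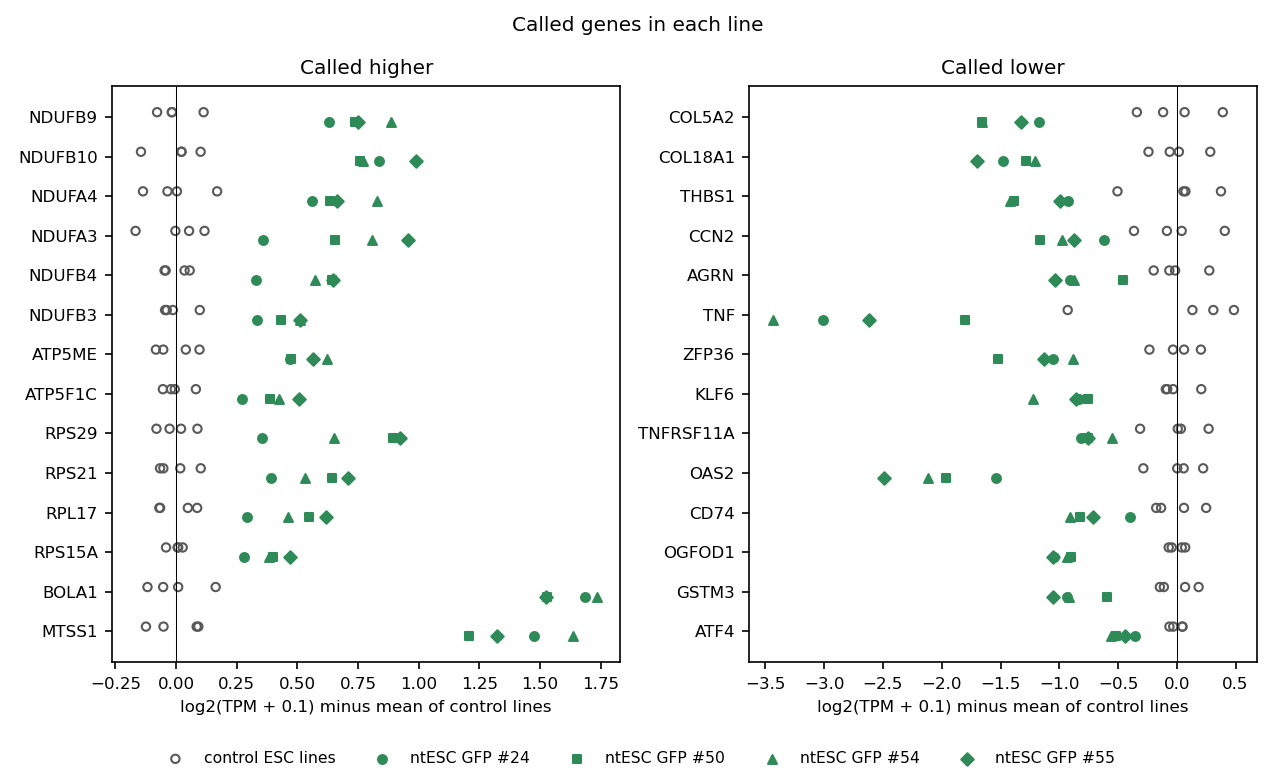
log2(TPM + 0.1) of 28 called genes in each line, less the mean of the 4 control ESC lines, with control lines as open circles and each ntESC GFP line by its own filled symbol. All ntESC GFP lines lie on 1 side of all control lines in every gene drawn, line #24 is nearest to the controls in NDUFA3 and the ribosomal proteins, and TNF and OAS2 differ by the most.

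Of the 137 called genes, 125 could be placed on a chromosome by the annotation and 12 could not. Among the 125, 1 pair were direct neighbours, and no other pair lay within 3 genes of each other. The pair was NDUFB9 and MTSS1 on chromosome 16. MTSS1, which encodes a protein that binds actin and bends membranes, stood at 10.3 TPM in #13, 10.3 in #15, 8.88 in #17 and 9.34 in #37 of control ESC and at 27.1 TPM in #24, 22.5 in #50, 30.3 in #54 and 24.4 in #55 of ntESC GFP. The rise of 2.66-fold (log2 fold change 1.41 with a standard error of 0.12, adjusted p = 0.000925 from limma) was called. The MTSS1 call was kept in all 8 fits without 1 line. TATDN1, on the far side of NDUFB9, stood at 13.9 to 24.2 TPM in control ESC and at 25.3 to 31.3 TPM in ntESC GFP, without overlap and without passing (log2 fold change 0.65, adjusted p = 0.0922, limma). The next genes on either side, RNF139 and ZNF572, had overlapping groups. In the ntESC WT lines, MTSS1 stood at 4.88 TPM in #30, 6.82 in #53 and 9.21 in #61 and NDUFB9 at 414 TPM in #30, 521 in #53 and 644 in #61.

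COL18A1, COL5A2, THBS1, AGRN and CCN2, which encode matrix or secreted proteins, fell in ntESC GFP. They were grouped after their values were seen and no list of matrix genes was counted, while DDR2, a collagen receptor, rose. COL18A1, a collagen of basement membranes, stood at 287 TPM in #13, 413 in #15, 325 in #17 and 343 in #37 of control ESC and at 121 TPM in #24, 139 in #50, 147 in #54 and 104 in #55 of ntESC GFP. It fell 2.67-fold with no overlap (log2 fold change −1.42 with a standard error of 0.14, adjusted p = 0.00188 from limma). The COL18A1 call was kept in all 8 fits without 1 line. COL5A2, a fibrillar collagen, stood at 29.4 TPM in #13, 25.1 in #15, 41.8 in #17 and 33.4 in #37 of control ESC and at 14.1 TPM in #24, 10.03 in #50, 10.03 in #54 and 12.7 in #55 of ntESC GFP. Its fall of 2.74-fold (log2 fold change −1.45 with a standard error of 0.18, adjusted p = 0.00911 from limma) was called. The COL5A2 call was kept in all 8 fits without 1 line but did not pass against the IVF lines alone. THBS1, the matrix glycoprotein thrombospondin, fell from between 110 and 203 TPM to between 58.2 and 82.1 TPM (log2 fold change −1.18, adjusted p = 0.0286, limma). The THBS1 call was lost when any line other than control #37 and GFP #24 was left out (adjusted p up to 0.0886). AGRN, a basement membrane proteoglycan, fell from between 166 and 229.9 TPM to between 92.5 and 138 TPM (log2 fold change −0.82, adjusted p = 0.0375, limma). The AGRN call was lost when any line other than GFP #50 was left out (adjusted p up to 0.138). CCN2, a secreted matrix protein, fell from between 167 and 285 TPM to between 96.00 and 140.2 TPM (log2 fold change −0.91, adjusted p = 0.0496, limma). The CCN2 call was lost when any line other than control #37 and GFP #24 was left out (adjusted p up to 0.152).

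LIMS2, PLXDC2, SORCS2, SLC9A3R1 and FAM114A1 fell as well. LIMS2, an adaptor of focal adhesions, stood at 8.77 to 12.9 TPM in control ESC and 4.12 to 5.55 TPM in ntESC GFP (log2 fold change −1.12, adjusted p = 0.0219, limma). The LIMS2 call was lost without control #15, control #17, GFP #50 or GFP #55 (adjusted p up to 0.0808). PLXDC2, a transmembrane protein, fell from between 15.8 and 24.9 TPM to between 6.12 and 10.2 TPM (log2 fold change −1.32, adjusted p = 0.0262, limma). The PLXDC2 call was lost when any line other than control #13, GFP #24 and GFP #50 was left out (adjusted p up to 0.104). SORCS2, a sorting receptor, fell from between 3.46 and 8.75 TPM to between 1.32 and 2.63 TPM (log2 fold change −1.77, adjusted p = 0.0487, limma). The SORCS2 call was lost when any line other than control #37 and GFP #54 was left out (adjusted p up to 0.164). SLC9A3R1, a scaffold beneath the apical membrane, stood at 588 TPM in #13, 530 in #15, 566 in #17 and 661 in #37 of control ESC and at 379.7 TPM in #24, 343 in #50, 299.6 in #54 and 309 in #55 of ntESC GFP. All 4 ntESC GFP lines were lower (log2 fold change −0.82 with a standard error of 0.10, adjusted p = 0.00789 from limma). The SLC9A3R1 call was kept in all 8 fits without 1 line but did not pass with all 11 stem cell libraries or against the IVF lines alone. FAM114A1 fell from between 21.6 and 30.8 TPM to between 7.29 and 12.2 TPM (log2 fold change −1.39 with a standard error of 0.17, adjusted p = 0.00983 from limma). The FAM114A1 call was kept in all 8 fits without 1 line but did not pass with all 11 libraries, nor against the IVF or the NAT lines alone. Of 21 genes listed for fibroblasts, which include genes of the matrix, 0 passed the limma test, 3 had an unadjusted p under 0.05, and the median was −0.24.

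Immune signalling genes lay mostly below the control mean, with few single genes past the test. Of all genes, 0.423% were called lower. Of 22 genes listed for the NF-kB and TNF response, 18 lay below 0, with a median log2 fold change of −0.45, and 1 fell. In 5 of them (22.7%) all ntESC GFP lines lay below all control lines, against 5.98% of all genes. The median depended on the controls: it was −0.19 against the IVF lines alone, −0.75 against the NAT lines alone and −0.25 without control #13. Of 20 interferon-stimulated genes, 17 lay below 0, with a median of −0.37, and 1 fell. In 2 of them (10.0%) all ntESC GFP lines lay below all control lines. Line #54 had a median of −0.10, above control #37 with −0.18. Of 23 chemokines, cytokines and their receptors, 2 had all ntESC GFP lines above all control lines (8.7%) and 2 had them below (8.7%). The shares of all genes were 5.69% and 5.98%. Of the 23, 15 lay below 0, with a median of −0.38, and 1 fell. This median was −0.07 without control #37, −0.72 without GFP #50, −0.17 against the IVF lines alone and −0.92 against the NAT lines alone, and the call was lost without control #15 or GFP #55 and against the NAT lines. Of 8 genes for antigen presentation, 6 lay below 0, with a median of −0.23 that ran from −0.56 to −0.10 without 1 line, and 1 fell. In 2 of the 8 (25.0%) all ntESC GFP lines lay below all control lines.

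TNF, the inflammatory cytokine, stood at 331 TPM in #13, 375 in #15, 423 in #17 and 159 in #37 of control ESC and at 37.3 TPM in #24, 86.5 in #50, 27.8 in #54 and 49.1 in #55 of ntESC GFP. Control #37 was the lowest control and lay above every ntESC GFP line, and TNF fell 6.58-fold (log2 fold change −2.72 with a standard error of 0.39, adjusted p = 0.0178 from limma). The TNF call was lost without control #15 or GFP #55 (adjusted p up to 0.0743). ZFP36, which directs the decay of inflammatory mRNAs, stood at 67.3 TPM in #13, 79.4 in #15, 71.8 in #17 and 58.5 in #37 of control ESC and at 33.1 TPM in #24, 23.9 in #50, 37.2 in #54 and 31.5 in #55 of ntESC GFP. It fell by 1.15 on the log2 scale (adjusted p = 0.0115, limma). The ZFP36 call was lost without GFP #55 (adjusted p up to 0.052). OAS2, an interferon-induced sensor of double-stranded RNA, stood at 3.92 TPM in #13, 3.48 in #15, 3.35 in #17 and 2.72 in #37 of control ESC and at 1.08 TPM in #24, 0.782 in #50, 0.694 in #54 and 0.511 in #55 of ntESC GFP. It fell 4.08-fold (log2 fold change −2.03 with a standard error of 0.27, adjusted p = 0.0122 from limma) and was kept in all 8 fits without 1 line, though it did not pass against the IVF or the NAT lines alone, nor with depth as a covariate. CD74, the invariant chain of MHC class II, fell from between 171 and 230 TPM to between 103 and 146 TPM (log2 fold change −0.71, adjusted p = 0.049, limma). The CD74 call was lost when any line other than GFP #24 was left out (adjusted p up to 0.16). CXCL2, a chemokine that attracts neutrophils, stood at 4.19 TPM in #13, 2.58 in #15, 2.02 in #17 and 1.66 in #37 of control ESC and at 0.643 TPM in #24, 0.322 in #50, 0.867 in #54 and 0.494 in #55 of ntESC GFP. The groups did not overlap, and the gene did not pass (log2 fold change −1.97, adjusted p = 0.0519, limma).

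Outside these lists, TNFRSF11A, KLF6 and S100P fell. TNFRSF11A, the receptor RANK, fell from between 38.6 and 57.9 TPM to between 27.2 and 32.6 TPM (log2 fold change −0.72, adjusted p = 0.0406, limma). The TNFRSF11A call was lost when any line other than control #15 was left out (adjusted p up to 0.148). KLF6, a zinc finger transcription factor induced early by many stimuli, stood at 235 TPM in #13, 227 in #15, 277 in #17 and 225 in #37 of control ESC and at 135 TPM in #24, 142 in #50, 103 in #54 and 133 in #55 of ntESC GFP. The 4 ntESC GFP lines were all lower (log2 fold change −0.92 with a standard error of 0.12, adjusted p = 0.00983 from limma). The KLF6 call was kept in all 8 fits without 1 line but did not pass with all 11 libraries, nor against the IVF or the NAT lines alone. S100P, a calcium-binding protein, stood at 3.43 TPM in #13, 0.672 in #15, 0.848 in #17 and 1.76 in #37 of control ESC and at 0 TPM in #24, 0.214 in #50, 0 in #54 and 0 in #55 of ntESC GFP. It was near 0 in ntESC GFP and low in the controls, and it passed the filter on mean level through the controls alone. The S100P call (log2 fold change −3.48, adjusted p = 0.0413, limma) was lost when any line other than GFP #50 was left out (adjusted p up to 0.144).

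Metabolic genes were called singly. Of 21 genes for cholesterol synthesis, 19 lay below 0, with a median log2 fold change of −0.29, 10 had an unadjusted p under 0.05 and 1 fell, and in 6 of them (28.6%) all ntESC GFP lines lay below all control lines, against 5.98% of all genes. By line, the median was −0.31 in #24, −0.20 in #50, −0.44 in #54 and −0.28 in #55. It was 0.15 in control #13, 0.02 in #15, 0.09 in #17 and −0.23 in #37, so that control #37 lay below #50. SC5D, a late enzyme of the pathway, stood at 47.2 TPM in #13, 48.5 in #15, 45.9 in #17 and 45.7 in #37 of control ESC and at 29.4 TPM in #24, 36.5 in #50, 34.4 in #54 and 32.5 in #55 of ntESC GFP. It fell by 0.50 on the log2 scale (adjusted p = 0.0406, limma). The SC5D call was lost when any line other than GFP #24 was left out (adjusted p up to 0.149). LSS, which closes the sterol rings, had non-overlapping groups of 44.05 to 81.7 TPM and 23.96 to 37.5 TPM and did not pass (log2 fold change −0.93, adjusted p = 0.0692, limma). Of 25 genes of glycolysis and hypoxia, 1 fell and the median was −0.12. That gene, PFKM, an isoform of phosphofructokinase, fell from between 196 and 260.1 TPM to between 126 and 152 TPM (log2 fold change −0.74, adjusted p = 0.0263, limma). The PFKM call was lost when any line other than control #13, control #37 and GFP #24 was left out (adjusted p up to 0.107). GYS1, glycogen synthase, fell from between 20.4 and 25.1 TPM to between 8.75 and 14.5 TPM (log2 fold change −0.999, adjusted p = 0.0286, limma). The GYS1 call was lost without control #15, control #17, control #37 or GFP #55 (adjusted p up to 0.114).

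Genes of stress responses and of redox metabolism gave further single calls. ATF4, the transcription factor of the integrated stress response, stood at 1020 TPM in #13, 967 in #15, 1022 in #17 and 946 in #37 of control ESC and at 772 TPM in #24, 690.2 in #50, 671 in #54 and 727 in #55 of ntESC GFP. It fell by 0.47 on the log2 scale (adjusted p = 0.0199, limma). The ATF4 call was lost when any line other than control #37, GFP #24 and GFP #54 was left out (adjusted p up to 0.0806). CBS, which makes cystathionine from homocysteine, fell from between 100.2 and 142 TPM to between 68.1 and 85.4 TPM (log2 fold change −0.69, adjusted p = 0.0375, limma). The CBS call was lost when any line other than control #37, GFP #24 and GFP #54 was left out (adjusted p up to 0.143). Of 29 enzymes of glutathione and drug metabolism, 1 fell and the median was −0.06. That gene, GSTM3, a glutathione transferase, stood at 931 TPM in #13, 821 in #15, 1008 in #17 and 802 in #37 of control ESC and at 463 TPM in #24, 587 in #50, 469 in #54 and 428 in #55 of ntESC GFP, and its call (log2 fold change −0.87, adjusted p = 0.012, limma) was lost without GFP #55 (adjusted p up to 0.052). APEX1, a nuclease of base excision repair, fell from between 685 and 719 TPM to between 498 and 577 TPM (log2 fold change −0.42, adjusted p = 0.0278, limma). The APEX1 call was lost when any line other than GFP #24 was left out (adjusted p up to 0.116). Of 21 targets of p53, 1 fell and the median was 0.07. It was BTG2, which slows proliferation, with 133 to 173 TPM against 94.4 to 107 TPM (log2 fold change −0.54, adjusted p = 0.0434, limma). The BTG2 call was lost when any line other than GFP #24 was left out (adjusted p up to 0.132).

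OGFOD1 had the smallest adjusted p of the genes with a symbol called lower. It encodes a hydroxylase that modifies the ribosomal protein RPS23. It stood at 38.2 TPM in #13, 38.9 in #15, 41.2 in #17 and 42.1 in #37 of control ESC and at 19.4 TPM in #24, 21.4 in #50, 20.9 in #54 and 19.2 in #55 of ntESC GFP. Both groups were tight and far apart, with a fall of 1.98-fold (log2 fold change −0.98 with a standard error of 0.08, adjusted p = 0.000852 from limma). The OGFOD1 call was kept in all 8 fits without 1 line. The ntESC WT lines had 40.3 TPM in #30, 46.9 in #53 and 36.1 in #61. CCNJL, a cyclin-like gene, fell from between 13.96 and 18.2 TPM to between 6.57 and 8.93 TPM (log2 fold change −1.10, adjusted p = 0.0125, limma). The CCNJL call was lost without GFP #55 (adjusted p up to 0.0646).

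PIWIL1, ADAD1 and FGF8 were called higher. Of 24 genes listed for the germline and the piRNA pathway, 1 rose, 15 lay above 0 and the median log2 fold change was 0.17. It was PIWIL1, which binds piRNAs and holds transposons down in germ cells, at 7.08 TPM in #13, 4.92 in #15, 10.1 in #17 and 9.03 in #37 of control ESC and 20.00 TPM in #24, 24.4 in #50, 31.2 in #54 and 21.4 in #55 of ntESC GFP. It rose 3.15-fold (log2 fold change 1.66 with a standard error of 0.23, adjusted p = 0.0178 from limma). The PIWIL1 call was lost without GFP #55 (adjusted p up to 0.066). ADAD1, an RNA-binding protein of male germ cells, rose from between 0.501 and 0.657 TPM to between 1.93 and 2.63 TPM (log2 fold change 1.76, adjusted p = 0.0144, limma). The ADAD1 call was lost without GFP #55 (adjusted p up to 0.0818). FGF8, a growth factor of the gastrulating embryo, stood at 5.45 TPM in #13, 7.09 in #15, 5.85 in #17 and 4.39 in #37 of control ESC and at 10.8 TPM in #24, 10.9 in #50, 10.1 in #54 and 13.6 in #55 of ntESC GFP. Its rise of 1.00 on the log2 scale (adjusted p = 0.0395, limma) was lost when any line other than control #15 and GFP #24 was left out (adjusted p up to 0.148), and it was the only gene to pass of 23 listed for primitive streak and mesoderm, whose median was −0.10.

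CCNE2, a cyclin of the G1/S transition, rose from between 17.5 and 21.9 TPM to between 32.8 and 41.4 TPM (log2 fold change 0.88, adjusted p = 0.0124, limma). The CCNE2 call was lost without GFP #55 (adjusted p up to 0.0646). CKS1B, a partner of cyclin-dependent kinases, rose from between 452 and 551 TPM to between 623 and 714 TPM (log2 fold change 0.43, adjusted p = 0.0486, limma). The CKS1B call was lost when any line other than control #37 and GFP #24 was left out (adjusted p up to 0.171). Of 25 genes of the mitotic cycle, 0 passed the limma test, 6 had an unadjusted p under 0.05, and the median was −0.05. MAGOHB, a subunit of the exon junction complex, rose from between 57.2 and 61.98 TPM to between 80.98 and 90.7 TPM (log2 fold change 0.52, adjusted p = 0.0144, limma). The MAGOHB call was lost without GFP #55 (adjusted p up to 0.0777). GADD45G, a stress and differentiation gene, rose from between 14.1 and 18.5 TPM to between 26.8 and 33.9 TPM (log2 fold change 0.88, adjusted p = 0.0205, limma). The GADD45G call was lost without control #15, GFP #50 or GFP #55 (adjusted p up to 0.0689).

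Several genes with a large rise were low in the control lines. CASR, the calcium-sensing receptor, stood at 0.874 TPM in #13, 0.259 in #15, 1.54 in #17 and 0.485 in #37 of control ESC and at 8.22 TPM in #24, 3.57 in #50, 4.73 in #54 and 6.87 in #55 of ntESC GFP, and its rise of 7.44-fold (log2 fold change 2.89 with a standard error of 0.47, adjusted p = 0.0305 from limma) was called. The CASR call was lost when any line other than control #17, GFP #24 and GFP #50 was left out (adjusted p up to 0.132). DDR2, a receptor for collagen, rose from between 0.265 and 1.22 TPM to between 2.91 and 5.08 TPM (log2 fold change 2.77, adjusted p = 0.022, limma). The DDR2 call was lost when any line other than control #13, control #37 and GFP #24 was left out (adjusted p up to 0.103). SLC37A2, a transporter of sugar phosphates, rose from between 0.116 and 0.328 TPM to between 0.972 and 1.36 TPM (log2 fold change 2.16, adjusted p = 0.0286, limma). Every control line was under the 0.5 TPM of the filter, so SLC37A2 was tested through its level in ntESC GFP alone. The SLC37A2 call was lost when any line other than control #17 and GFP #24 was left out (adjusted p up to 0.139). In these genes the lowest ntESC GFP line lay above the highest control line. ACYP1, an acylphosphatase, rose from between 14.7 and 25.6 TPM to between 41.4 and 49.2 TPM (log2 fold change 1.13, adjusted p = 0.024, limma). The ACYP1 call was lost without control #37, GFP #50, GFP #54 or GFP #55 (adjusted p up to 0.104). ATG3, an enzyme of autophagosome formation, rose from between 38.8 and 67.7 TPM to between 90.2 and 153 TPM (log2 fold change 1.26, adjusted p = 0.0287, limma). The ATG3 call was lost when any line other than control #37, GFP #24 and GFP #50 was left out (adjusted p up to 0.121).

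Signalling and lineage lists otherwise gave few or no calls. For the counts here and in the next paragraph, 3021 of all 16094 genes had an unadjusted p under 0.05. Of 28 targets of NODAL, BMP and FGF signals, 0 passed the limma test, 5 had an unadjusted p under 0.05, 20 lay below 0, and the median log2 fold change was −0.34 (−0.335). The medians of lines #54 and #55 were −0.43 and −0.59, and those of #24 and #50 were −0.08 and −0.03. Control lines ran from −0.26 in #13 to 0.34 in #37. Of 28 imprinted genes, 0 passed, 5 had an unadjusted p under 0.05, and the median was 0.10. Of 312 C2H2 zinc finger genes, 0 passed, 53 had an unadjusted p under 0.05, and the median was 0.08. Lists for DNA methylation enzymes (15 genes) and for H3K9 methylation enzymes (21 genes) had 0 calls, with 4 and 5 genes at an unadjusted p under 0.05 and medians of 0.01 and 0.03.

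The naive pluripotency, HOX and endoderm lists differed widely between lines. Of 17 genes of naive pluripotency and the preimplantation embryo, 0 passed the limma test, 4 had an unadjusted p under 0.05, and the median log2 fold change was 0.65. That median was 0.08 without GFP #54, 0.30 without control #37, 0.98 without control #13 and 0.04 with depth as a covariate. The list's median was 1.84 in #54 and 0.95 in control #13, against 0.19 in #24, −0.09 in #50 and 0.50 in #55. Of 16 HOX genes, which pattern the body axis, 0 passed, 0 had an unadjusted p under 0.05, and the median was −0.60. It was −1.70 without GFP #50, −1.37 without control #13, −0.23 without control #17 and −0.08 without GFP #55, and it turned to 0.09 with depth as a covariate. By line, the HOX median was 2.17 in #50 and −1.11, −1.60 and −2.21 in #24, #54 and #55. The control lines differed widely as well, with −1.84 in #13, −0.63 in #15, 1.34 in #17 and 1.11 in #37. Endoderm genes (12 tested) had 0 calls, 4 genes at an unadjusted p under 0.05 and a median of −0.72, with 0.69 in #50 and −1.58 in #55. In control lines the endoderm median ran from −0.51 in #13 to 0.48 in #37.

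**Figure D3:**
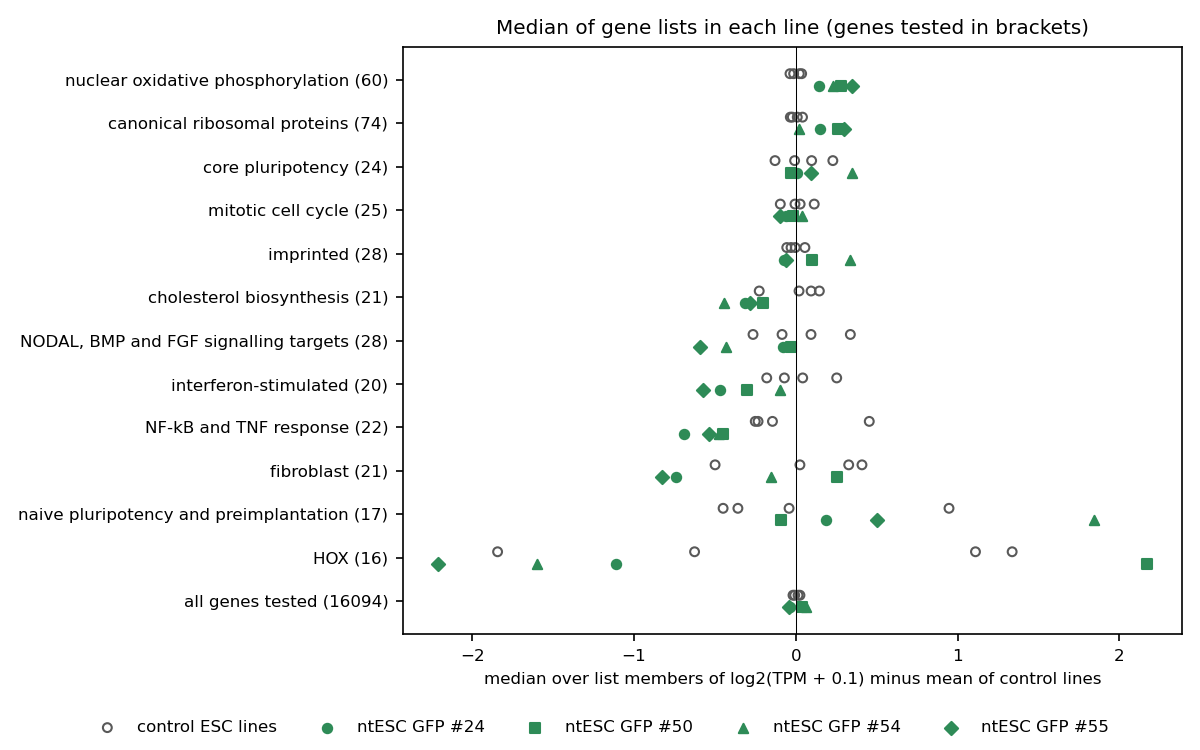
Median over the genes of each list of log2(TPM + 0.1) less the mean of the 4 control ESC lines, for each control line (open circles) and each ntESC GFP line (filled symbols). The oxidative phosphorylation list lies between 0.14 and 0.35 in the 4 ntESC GFP lines, above all controls. The HOX list runs from −2.21 in #55 to 2.17 in #50, and from −1.84 to 1.34 in control lines.

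Some predicted genes separated the groups widely. LOC100401954 stood at 1.59 TPM in #13, 3.19 in #15, 2.11 in #17 and 3.76 in #37 of control ESC and at 126 TPM in #24, 101 in #50, 99.7 in #54 and 112 in #55 of ntESC GFP. It rose 41.7-fold (log2 fold change 5.38 with a standard error of 0.24, adjusted p = 2.52e-05 from limma) and was kept in all 8 fits without 1 line, while the ntESC WT lines had 1.81 to 2.60 TPM and the fibroblasts 2.56 TPM. LOC100389031, annotated as a pseudogene, stood at 1.26 TPM in #13, 2.98 in #15, 2.82 in #17 and 1.94 in #37 of control ESC and at 51.6 TPM in #24, 47.01 in #50, 49.9 in #54 and 54.4 in #55 of ntESC GFP. Its rise of 22.7-fold (log2 fold change 4.50 with a standard error of 0.25, adjusted p = 8.76e-05 from limma) was kept in all 8 fits without 1 line, and the ntESC WT lines had 2.13 to 3.58 TPM. LOC103790833 went the other way, with 20.8 TPM in #13, 21.2 in #15, 11.1 in #17 and 20.9 in #37 of control ESC and 0.777 TPM in #24, 0.389 in #50, 0.523 in #54 and 0.596 in #55 of ntESC GFP. All 4 ntESC GFP lines were below 1 TPM (log2 fold change −4.78 with a standard error of 0.28, adjusted p = 0.000103 from limma), the call was kept in all 8 fits without 1 line, and the ntESC WT lines had 6.43 TPM in #30, 9.63 in #53 and 9.27 in #61. LOC108593077, annotated as a transcribed pseudogene, stood at 49.7 TPM in #13, 44.9 in #15, 42.2 in #17 and 21.9 in #37 of control ESC and at 4.11 TPM in #24, 5.74 in #50, 4.36 in #54 and 7.45 in #55 of ntESC GFP. It fell 7.08-fold (log2 fold change −2.82 with a standard error of 0.28, adjusted p = 0.0022 from limma), and the call was kept in all 8 fits without 1 line.

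In all, 9 genes were on in ntESC GFP, with at least 1 TPM in all 4 lines, and at most 0.2 TPM in all 4 control lines, while 0 genes showed the reverse. ITIH1, a plasma protein that binds hyaluronan, was listed at 0 in all 4 control lines and stood at 1.75 TPM in #24, 2.16 in #50, 4.02 in #54 and 2.89 in #55 of ntESC GFP. LOC100391425, also listed at 0 in the control lines, stood at 1.32 TPM in #24, 5.72 in #50, 9.47 in #54 and 7.08 in #55 of ntESC GFP, with #24 lowest. LOC118150070 and LOC118148910, again at 0 in the controls, had 1.71 to 2.92 TPM and 1.14 to 1.71 TPM. All 4 genes were called higher by limma (adjusted p of 0.000584 for ITIH1, 0.0022 for LOC100391425, 0.000584 for LOC118150070 and 0.00149 for LOC118148910) and kept in all 8 fits without 1 line. These fits used the values by which the genes were picked, so they add no separate support. With every control line at 0, the genes passed the filter on mean level through ntESC GFP alone, and the controls showed no spread. LOC100391612 stood at 0 to 0.131 TPM in control ESC and 5.88 to 9.22 TPM in ntESC GFP. LOC100392829, a pseudogene, stood at 3.19 TPM in #24, 2.51 in #50, 70.4 in #54 and 6.42 in #55 of ntESC GFP, with #54 far above the other 3, and at most 0.119 TPM in control ESC.

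Predicted copies of ribosomal protein genes were among the genes called lower. Of these, LOC100394437 and LOC108592091 passed the filter on mean level through the controls alone. LOC100394437, which resembles RPS2 and is annotated as a transcribed pseudogene, stood at 278 TPM in #13, 300.5 in #15, 581 in #17 and 301 in #37 of control ESC and at 0 TPM in #24, 0.269 in #50, 0 in #54 and 0 in #55 of ntESC GFP. It fell in all 4 lines (log2 fold change −11.29, adjusted p = 1.47e-05, limma) to or near 0, a level at which the size of the fold change depends on the value added before the logarithm, and was kept in all 8 fits without 1 line. The ntESC WT lines were not uniform, with 324 TPM in #30, 0.333 in #53 and 0 in #61. LOC108592091, also RPS2-like, stood at 41.05 TPM in #13, 54.6 in #15, 105 in #17 and 46.8 in #37 of control ESC and at 0.666 TPM in #24, 0.2 in #50, 0 in #54 and 0.46 in #55 of ntESC GFP (log2 fold change −7.42, adjusted p = 0.000651, limma). The LOC108592091 call was kept in all 8 fits without 1 line but did not pass with all 11 stem cell libraries (adjusted p = 0.104, limma). LOC103793262, which resembles RPL3, stood at 6.23 TPM in #13, 5.68 in #15, 12.2 in #17 and 6.15 in #37 of control ESC and at 0.786 TPM in #24, 0.866 in #50, 0.424 in #54 and 0.543 in #55 of ntESC GFP (log2 fold change −3.31 with a standard error of 0.32, adjusted p = 0.0018 from limma). The LOC103793262 call was kept in all 8 fits without 1 line.

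In each of these copies control #17 was the highest control. The same pattern was found for LOC100402290, with 11.8 TPM in #13, 9.16 in #15, 26.4 in #17 and 11.1 in #37 of control ESC and 0.273 TPM in #24, 0 in #50, 0 in #54 and 0 in #55 of ntESC GFP (log2 fold change −6.60 with a standard error of 0.52, adjusted p = 0.000584 from limma). The LOC100402290 call was kept in all 8 fits without 1 line but did not pass with all 11 stem cell libraries (adjusted p = 0.0542, limma). This gene too passed the filter on mean level through the controls alone. RPS2 itself stood at 2456 TPM in #13, 2670 in #15, 1261 in #17 and 2648 in #37 of control ESC and at 4147 TPM in #24, 4037 in #50, 3240 in #54 and 4008 in #55 of ntESC GFP. Control #17, highest for the copies, was the lowest control for RPS2, and RPS2 did not pass (log2 fold change 0.83, adjusted p = 0.112, limma). Multi-mapping reads had been dropped, so reads shared between RPS2 and its copies were counted for none of them.

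A control line also stood apart in CYTB, the gene for cytochrome b in mitochondrial DNA. CYTB stood at 15.2 TPM in #13, 13.7 in #15, 728 in #17 and 9.90 in #37 of control ESC and at 623 TPM in #24, 773 in #50, 772 in #54 and 565 in #55 of ntESC GFP. Control #17 had a level within the ntESC GFP range, while the other 3 controls were far below it. The ntESC WT lines had 614 TPM in #30, 684 in #53 and 629 in #61, and among embryoid bodies the controls had 34.2 TPM in #13, 1326 in #17 and 50.8 in #37. Reads with more than 1 mismatch to the genome had been dropped before counting, and the part of this step in the CYTB values was not tested.

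**Figure D4:**
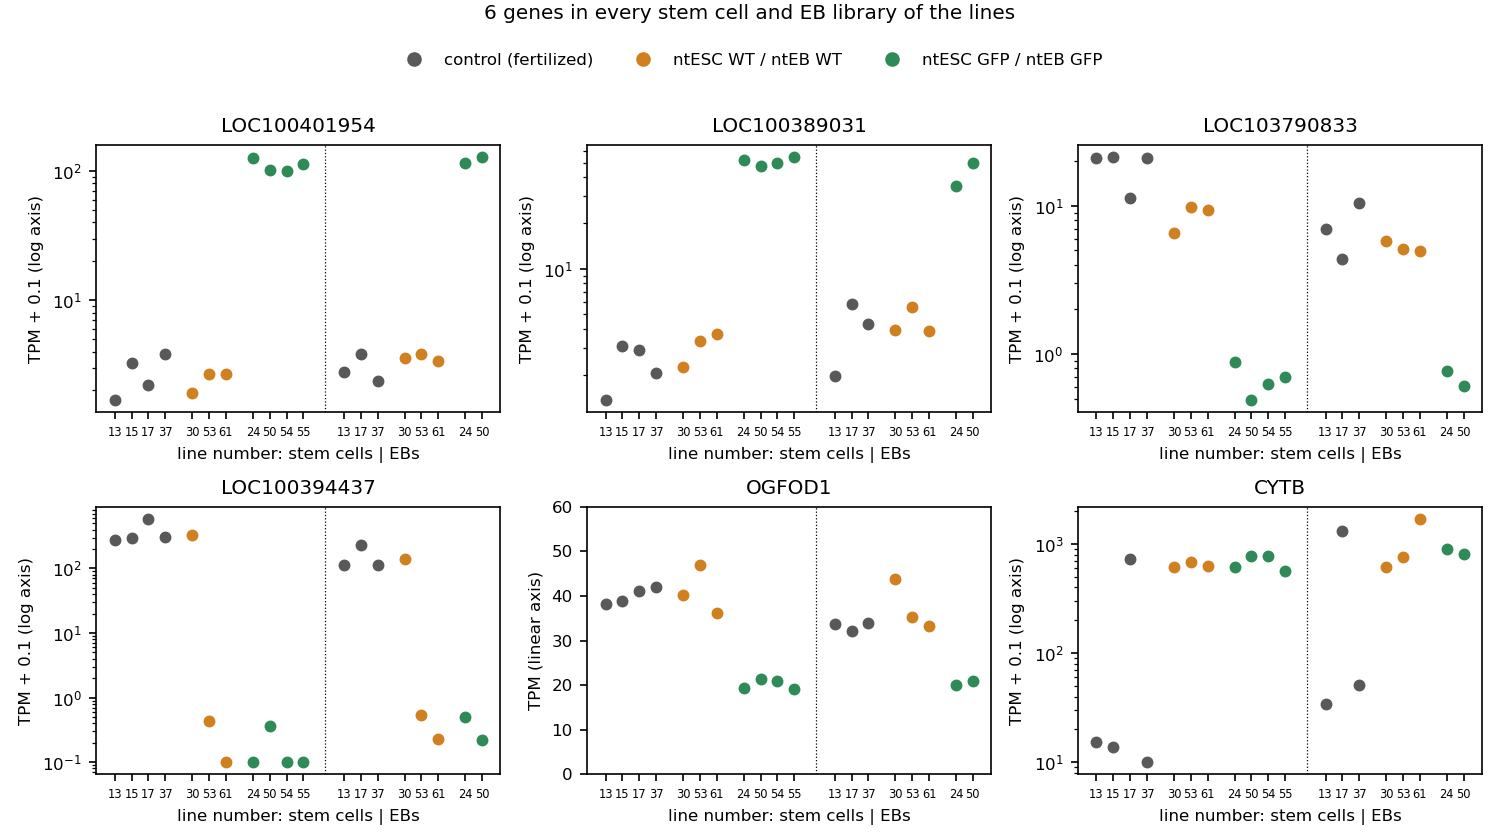
Level of 6 genes in every stem cell library (left of the dotted line) and embryoid body library (right) by line number, as TPM + 0.1 on a log axis, or as TPM on a linear axis for OGFOD1. LOC100401954 is near 100 TPM in the ntESC GFP and ntEB GFP libraries alone, LOC100394437 is high in all controls and in WT #30, and CYTB is low in 3 of the 4 control ESC lines.

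Line #54 stood apart as the highest line in more genes than any other line did. A gene was counted as standing apart where 1 of the 8 lines lay at least 2 log2 units beyond the nearest other line and the higher of these values was at least 5 TPM. By this count 21 genes were higher and 5 lower in #54, 3 higher in #50, 1 higher in #55 and 1 lower in #24, against 1 to 3 higher and 2 to 8 lower in single control lines. The counts of #24, #50 and #55, and of genes lower in #54, were thus within or below those of control lines. Genes of the early embryo were among those high in #54. NLRP7, a gene of oocytes and early embryos, stood at 75.7 TPM in #24, 80.1 in #50, 846 in #54 and 118 in #55 of ntESC GFP and at 28.3 to 199.8 TPM in control ESC. LOC100414167 stood at 21.1 TPM in #24, 15.2 in #50, 505 in #54 and 33.2 in #55 of ntESC GFP and at 1.93 to 27.02 TPM in control ESC. PRAMEF20, of a gene family known from germ cells and early embryos, stood at 1.16 TPM in #24, 0.662 in #50, 12.6 in #54 and 1.14 in #55 of ntESC GFP and at 0 to 0.73 TPM in control ESC. In these genes #54 was several times above all other lines, and control #13 was the highest control in each.

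The naive pluripotency genes showed the same order. DPPA3, a maternal factor that guards DNA methylation, stood at 185 TPM in #24, 198 in #50, 584 in #54 and 281 in #55 of ntESC GFP and at 321 TPM in #13, 125 in #15, 116 in #17 and 149 in #37 of control ESC. KLF17, a transcription factor of the human naive state, stood at 7.14 TPM in #24, 5.11 in #50, 21.7 in #54 and 13.6 in #55 of ntESC GFP and at 0.288 to 11.8 TPM in control ESC. DNMT3L, a cofactor of de novo DNA methylation, stood at 7.78 TPM in #24, 12.4 in #50, 57.4 in #54 and 14.7 in #55 of ntESC GFP and at 3.92 to 17.7 TPM in control ESC. Line #54 was the highest of all 8 in each of these 3 genes. ZSCAN4, a gene of embryonic genome activation, stood at 0.879 TPM in #24, 0.377 in #50, 4.13 in #54 and 1.45 in #55 of ntESC GFP and at 0.0526 to 0.352 TPM in control ESC, so that all ntESC GFP lines were above the controls. Line #54 was also the lowest of the 8 lines in ID2, a target of BMP signals, with 44.1 TPM in #24, 94.7 in #50, 4.89 in #54 and 20.2 in #55 of ntESC GFP and 35.8 to 102 TPM in control ESC. MAL2, a gene of epithelial transport, likewise stood at 11.4 TPM in #24, 13.8 in #50, 0.977 in #54 and 11.1 in #55 of ntESC GFP and at 13.5 to 38.4 TPM in control ESC. TBXT, the mesoderm factor Brachyury, stood at 20.4 TPM in #24, 16.4 in #50, 62.4 in #54 and 13.6 in #55 of ntESC GFP and at 7.33 to 17.3 TPM in control ESC, again highest in #54.

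Genes of mesenchymal and other differentiated cells were among those higher in #50 than in the other 3 ntESC GFP lines. DCN, the matrix proteoglycan decorin, stood at 1.85 TPM in #24, 96.97 in #50, 0.833 in #54 and 2.34 in #55 of ntESC GFP and at 6.72 TPM in #13, 31.8 in #15, 39.98 in #17 and 93.8 in #37 of control ESC. POSTN, the matrix protein periostin, stood at 0.311 TPM in #24, 11.9 in #50, 0.279 in #54 and 0.199 in #55 of ntESC GFP and at 4.22 to 14.9 TPM in control ESC. In both genes #50 was near the higher controls, and #24, #54 and #55 lay below all 4 of them. C1QTNF3, a secreted protein, stood at 2.92 TPM in #24, 63.6 in #50, 4.09 in #54 and 1.76 in #55 of ntESC GFP and at 1.34 to 14.7 TPM in control ESC, so that #50 lay above all other lines. VTCN1, a gene of amnion and trophoblast, stood at 0.489 TPM in #24, 9.55 in #50, 0.22 in #54 and 1.20 in #55 of ntESC GFP and at 0.663 to 1.18 TPM in control ESC, likewise highest in #50. HOXB2 stood at 0.579 TPM in #24, 5.26 in #50, 0.164 in #54 and 0.105 in #55 of ntESC GFP and at 0.367 to 3.32 TPM in control ESC. The summed fibroblast markers of #50 were 424 TPM against 300.3 to 371 TPM in the other 3 ntESC GFP lines, and DCN in the fibroblasts of the Wildtype donor was 16070 TPM. Summed endoderm markers were 267 TPM in #50 and 30.5 to 90.3 TPM in the other 3, and summed mesoderm markers 195.5 TPM and 38.01 to 85.6 TPM. In control ESC these sums were 67.4 to 430.6 TPM for endoderm, a range that holds #50, and 62.6 to 181.5 TPM for mesoderm, just below #50. The part of such cells in the values of #50 was not tested.

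Lines #24 and #55 stood apart in 1 gene each by the count above, no more than single control lines did. LOC108593893 stood at 1.53 TPM in #24, 218 in #50, 115 in #54 and 67.3 in #55 of ntESC GFP and at 62.8 to 85.9 TPM in control ESC, so that #24 alone was low. The gene of #55 was LOC118150318, at 6.71 TPM in #55 and 0 to 1.06 TPM in the other lines. CER1, an inhibitor of NODAL, was not part of that count. It stood at 47.2 TPM in #24, 195 in #50, 2.99 in #54 and 2.44 in #55 of ntESC GFP and at 30.8 TPM in #13, 63.8 in #15, 372 in #17 and 201 in #37 of control ESC, with #54 and #55 below all other lines.

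**Figure D5:**
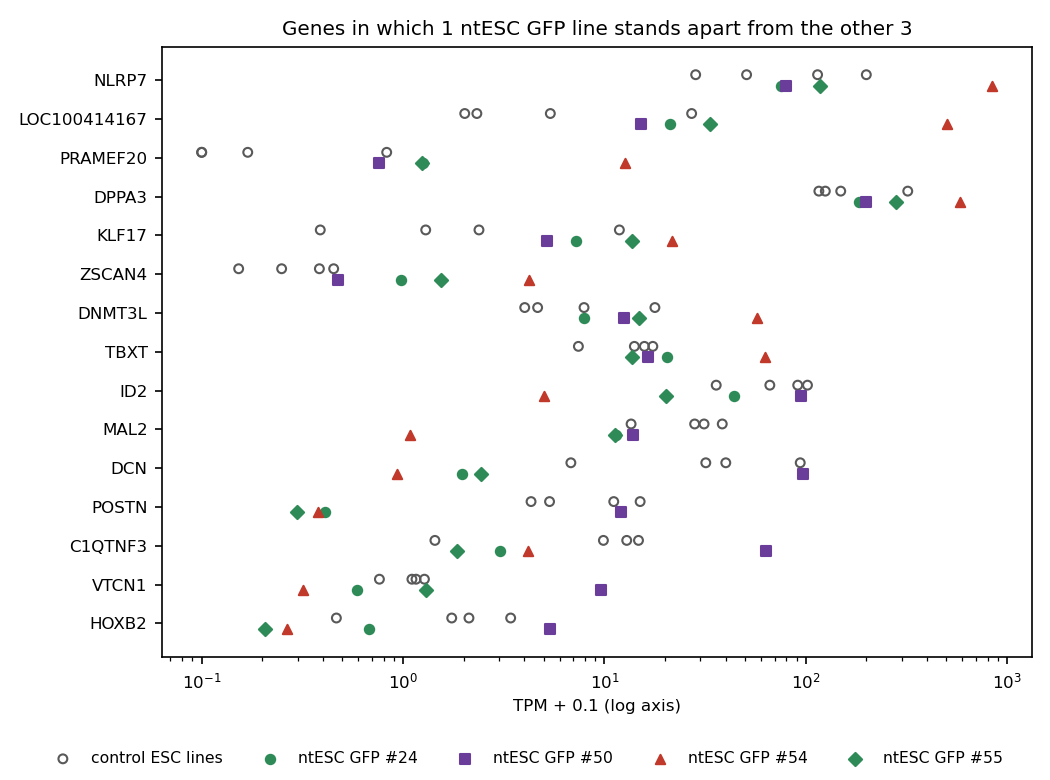
TPM + 0.1 on a log axis of 15 genes in each control ESC line (open circles) and each ntESC GFP line (filled symbols, #54 in red and #50 in purple). Line #54 is highest in NLRP7 (846 TPM) and 7 further genes and lowest in ID2 and MAL2, and line #50 is highest in DCN, C1QTNF3, VTCN1 and HOXB2.

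Embryoid bodies (EBs), aggregates in which stem cells differentiate, were measured for 2 of the 4 ntESC GFP lines (#24 and #50) and for 3 control lines (#13, #17 and #37), and come from a further culture of the same lines. The ntEB GFP #24 library still carried pluripotency transcripts, with POU5F1 at 1247 TPM in #24 and 25.8 in #50 of the ntEB GFP lines against 0.487 to 3.32 TPM in control EBs, and NLRP7 at 852 TPM in #24 and 13.3 in #50. The part of this in the comparison was not tested, and counts are therefore also given for #50 alone. Of 66 genes called higher that the EB table holds, both ntEB GFP libraries lay above all 3 control EBs in 31 (47.0%), against 24.5% of the 15907 genes tested in both tables, and below in 5 (7.58%), against 12.5%. With #50 alone, 32 lay above (48.5%), against 32.8% of all genes, and 15 below (22.7%), against 31.1%. Of 68 genes called lower, both ntEB GFP libraries lay below the controls in 20 (29.4%), against 12.5% of all genes, and above in 16 (23.5%), against 24.5%. With #50 alone, 29 lay below (42.6%), against 31.1% of all genes, and 24 above (35.3%), against 32.8%. On the opposite side the shares were thus near or under those of all genes.

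Genes that separated the groups widely in stem cells were in part also separated in EBs. LOC100401954 stood at 115 TPM in #24 and 128.2 in #50 of the ntEB GFP lines and at 2.27 to 3.74 TPM in control EBs. LOC103790833 stood at 0.666 TPM in #24 and 0.507 in #50 of the ntEB GFP lines and at 4.26 to 10.3 TPM in control EBs. LOC100394437 stood at 0.395 TPM in #24 and 0.117 in #50 of the ntEB GFP lines and at 113 to 232 TPM in control EBs. None of these predicted genes overlapped between the groups in EBs, and neither did the next 3 genes. OGFOD1 stood at 20.1 TPM in #24 and 20.9 in #50 of the ntEB GFP lines and at 33.8 TPM in #13, 32.1 in #17 and 33.9 in #37 of control EBs. MTSS1 stood at 30.8 TPM in #24 and 21.6 in #50 of the ntEB GFP lines and at 7.41 TPM in #13, 8.09 in #17 and 3.40 in #37 of control EBs. NDUFB9 stood at 854 TPM in #24 and 520.4 in #50 of the ntEB GFP lines and at 364 TPM in #13, 319 in #17 and 339 in #37 of control EBs, higher in #24 than in #50. In 10 called genes of those named, both ntEB GFP libraries lay on the other side of the control EBs than in stem cells, among them NDUFA4, ATP5F1C, RPS29, COL5A2 and CD74. BOLA1, in contrast, overlapped, with 71.7 TPM in #24 and 55.7 in #50 of the ntEB GFP lines and 44.2 TPM in #13, 61.4 in #17 and 47.4 in #37 of control EBs.

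A rule of fold size gave other genes than the test did. By group means, 566 genes were at least 2-fold higher (3.52%) and 295 at least 2-fold lower (1.83%) in ntESC GFP, on TPM + 0.1. Of these, 43 of the higher and 23 of the lower genes were called by limma. Without GFP #50, 590 genes were at least 2-fold lower. The remaining genes past 2-fold included the early embryo genes that were high in #54 alone, such as NLRP7 and PRAMEF20, whereas called genes of small change such as NDUFB3 and ATF4 were not among them.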

How the data were processed

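Stranded mRNA libraries of 1 culture per line were read on 2 sequencer models, and which library was read on which is not given in the sources used here. The authors trimmed reads with fastp, aligned them with STAR to the calJac4 assembly (multi-mapping reads and those with more than 1 mismatch dropped), used featureCounts for gene counts, and deposited TPM values without the sex chromosomes. TPM keeps no depth, so no counting interval was computed.

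From the TPM values, log2(TPM + 0.1) was fitted over the 8 libraries with lmFit and trended eBayes of limma 3.58.1 (R 4.3.3). Genes had to average 0.5 TPM or more over the 8 libraries, so a gene under that level in 1 group could enter through the other group alone. Benjamini-Hochberg adjustment ran over the 16094 genes, and a gene was called at an adjusted p under 0.05. Fold sizes are on the log2(TPM + 0.1) scale, which understates the change of low genes. Tables and figures were made in Python 3.11.15 with numpy 2.4.6, pandas 2.3.3, scipy 1.17.1 and matplotlib 3.10.9, and the fit was tested on simulated data. The calJac240_pri annotation matched 14682 of the tested genes and gave names, kinds and gene order only, since its build differs, and 3 genes that it places on a sex chromosome were left out. For groups described by 30 lists, calls, medians and non-overlap were counted and no list was tested.

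The text names the 12 called genes with a symbol and the 6 with a LOC identifier of largest change in each direction, the 5 most abundant, called list members, genes on in 1 group only and genes that stand apart in 1 line, in part as counts. Further called genes, such as OGFOD1, KLF6, TNFRSF11A, CCN2, AGRN, CBS, GYS1, CCNE2, CKS1B, MAGOHB, DMAC1, NDUFA3, ATP5F1C and MRPS27, and RPS2, TATDN1, RNF139, ZNF572, NLRP7 and the lists by mitochondrial complex and for the proteasome, were picked after their values were seen. The lines compared and the lists were chosen with earlier results of these data known. The alternatives tried were other added constants, filters, scalings, variance models, control lines, a fit with the ntESC WT lines, and each line left out.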

Additional observations from a re-analysis of the deposited data

Results flagged for a closer look

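A line was noted where its distance to the nearest line of its group, as a share of the group's whole range in TPM, was above Dixon's 95% critical value for 4 lines. Chance gives about 1 such group in 20. Of 198 groups of 4 lines examined, 33 were above it, and many of these genes were described because 1 line stood apart.

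Among ntESC GFP lines, #54 was high in NLRP7 (share of the range 0.945), NLRP2 (0.882), HESX1 (0.872), DNMT3L (0.861), PRAMEF20 (0.959), LOC100414167 (0.963), LOC100390986 (0.987), LOC100392829 (0.942) and TBXT (0.86). It was low in RPS2 (0.847) and MRPS27 (0.902). Line #50 was high in DCN (0.984), POSTN (0.99), VTCN1 (0.895), C1QTNF3 (0.962), FIBIN (0.976), AKR1C1 (0.944), HOXB2 (0.908) and CCNJL (0.882). Against values of 0 in the other 3 lines, #50 was also high in LOC100394437 (1.0, at 0.269 TPM) and S100P (1.0, at 0.214 TPM), and #24 in LOC100402290 (1.0, at 0.273 TPM). Line #24 was low in ATP5MG (0.869).

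Among control lines, #17 was high in CYTB (0.993), LOC100394437 (0.926), LOC103793262 (0.917) and LOC100402290 (0.848) and low in RPS2 (0.848) and LOC103790833 (0.959). Control #13 was high in DPPA3 (0.839), PRAMEF20 (0.905), LOC100414167 (0.866) and LOC100390986 (0.944).

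For 10 called genes the 2 ntEB GFP libraries lay on the other side of the 3 control EBs than the stem cell lines did, and this difference between stages was not tested. Over all called genes, such reversals were 5 of 66 higher genes (7.58%) and 16 of 68 lower genes (23.5%), against 12.5% and 24.5% of all genes, so these counts were at or under the share of all genes. The EB log2 difference was −0.40 for NDUFA4, −0.17 for ATP5F1C and −0.35 for RPS29, which were higher in ntESC GFP. It was 0.98 for COL5A2, 0.88 for PLXDC2, 4.06 for TNFRSF11A, 2.63 for CD74, 2.40 for GSTM3, 1.03 for PFKM and 2.75 for CCNJL, which were lower in ntESC GFP. Line #24, whose EB library still carried pluripotency transcripts, had the larger share in most of these, and with #50 alone the difference was 2.31 for TNFRSF11A, 1.21 for CD74, 1.35 for GSTM3, 0.43 for PFKM, 1.96 for CCNJL, −0.06 for RPS29 and −0.27 for NDUFA4, but 1.05 for COL5A2, 1.28 for PLXDC2 and −0.21 for ATP5F1C.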

How the results depend on the processing

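The number of genes called, 137 (69 higher and 68 lower), moved by over 1.5 times in several fits. It was 71 (36 higher, 35 lower) with all 11 stem cell libraries in the fit, 68 (36 and 32) without a variance trend, 1027 (430 and 597) with array weights, 43 (27 and 16) with relative depth as a covariate, 86 (55 and 31) against the IVF lines alone and 63 (44 and 19) against the NAT lines alone. A minimum mean of 5 TPM gave 120 lower genes. It ranged from 36 without GFP #55 to 354 without GFP #24, with 21 to 173 higher and 15 to 181 lower. For oxidative phosphorylation, 8 genes called became 5 with 11 libraries, 2 without the trend, 23 with array weights, 3 with depth, 4 against IVF and 2 against NAT lines, and 2 to 17 without 1 line. The median of this list stayed at 0.20 to 0.28 without 1 line and was 0.29 with array weights. For ribosomal proteins, 4 became 2 without a filter, 10 at a minimum of 5 TPM, 1 with quantile normalization, 2 with median centring, 7 with robust eBayes, 25 with array weights, 0 with 11 libraries, without the trend, with depth and against IVF or NAT lines, and 0 to 13 without 1 line. The NF-kB median of −0.45 was −0.19 against IVF and −0.75 against NAT lines, and −0.60 to −0.25 without 1 line, and the cholesterol median −0.41 to −0.24. Genes 2-fold apart, 566 higher and 295 lower, became 256 and 139 with 1 TPM added and 976 and 469 without a filter, and 406 to 703 higher and 266 to 590 lower without 1 line. Genes standing apart in 1 ntESC GFP line, 25 higher and 6 lower, became 204 and 55 at a gap of 1 log2 unit and 6 and 2 at 3. Called genes on the same side in EBs, 31 higher and 20 lower, were 32 and 29 with ntEB GFP #50 alone and 49 (74.2%) and 29 (42.6%) with #24 alone. This alternative was chosen after seeing the data. Of all genes, #24 alone lay above the control EBs in 58.9% and below them in 22.3%. With #24 alone, 10 genes called higher lay below the control EBs (15.2%) and 26 called lower lay above them (38.2%). Apart from fewer samples or genes where a setting leaves them out, the cause of these shifts was not tested.

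Of the 72 genes given a fold change, 63 were called and 19 of these were kept in all fits without 1 line. None reversed, while 208 of their values without 1 line and 230 under other settings were no longer called. No paired analysis was possible because the 2 groups compared share no line number. With 4 lines a group and 1 library a line, the spread of a line was not measured, and TPM do not show how many reads a value rests on.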
